A study of Camellia sinensis with 9 samples.

Results

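The expression of 146 unigenes declined at both steps of leaf development in ‘Anji Baicha’, first between yellow-green (YG) and albescent (W) leaves and again between albescent and re-greening (G) leaves. They were chosen by their values from the 179951 unigenes of the assembly. FPKM, the number of sequenced fragments scaled by unigene length and library size, had to be above 0 in all 3 stages and to reach 10 in 1 or more of them, which 6913 unigenes met. A unigene was kept when log2(FPKM + 1) fell by at least 1, about 2-fold, at each of the 2 steps, and unigenes named in the pathway tables of the paper were left out. The values below were therefore used to choose the unigenes and are given as a description, with no test.

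‘Anji Baicha’ (Camellia sinensis) is a tea cultivar in which leaf colour depends on temperature, so that spring leaves pass through a stage with little chlorophyll. Leaves of plants aged 4 years were sampled as YG, W and G leaves, and 3 libraries were made per stage, with no treatment. The YG leaves were the first leaves of the shoot, the W leaves came from lower positions later in spring, and the G leaves from still lower positions in warmer weather, so stage cannot be told apart from leaf position, collection date or temperature. The libraries of a stage came from separate plants, but the deposited data hold a single FPKM per unigene for each stage. Differences between stages thus have no replicate check here, and the number of fragments behind each value is unknown.

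A young tea leaf develops while its cells divide, enlarge and build chloroplasts, and transcripts of the first phases are in general replaced by those of the mature leaf. In an albino shoot this sequence runs alongside a delay in chloroplast development, and the leaf gains chlorophyll only at the end. In RNA from whole leaves, fewer cells of a type and less RNA per cell cannot be told apart. A unigene is a transcript assembled without a genome, and 1 gene can be represented by several unigenes. None of the 179951 identifiers matched the reference gene table (0 matches), and the sources used here give no gene name for any of the 146. They are for that reason given by their identifiers, and no function is assigned to them. Of the 70 chlorophyll unigenes listed by the study, 64 (91.4%) had an FPKM above 0 in every stage, against 65.6% of all unigenes. The share was 85.7% in its carotenoid list and 72.2% in its theanine list. These shares do not check the tissue, because the lists hold annotated unigenes of the same assembly.

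At the YG stage the 146 unigenes had a median FPKM of 25.6, with a lowest value of 10.005 and a highest of 1105. Their median was 7.23 at the W stage, with a range from 1.29 to 186. It was 1.62 at the G stage, with a range from 0.0120 to 81.0. Because a unigene that falls at both steps is highest in YG, the minimum of 10 had to be met there, and all 146 values in YG are above it by construction. The median change on the log2(FPKM + 1) scale was -1.61 for the first step (YG to W), -1.37 for the second (W to G) and -3.41 over both. Across all 6913 eligible unigenes the medians were 0.07, 0.08 and 0.14 in the same order.

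**Figure D1:**
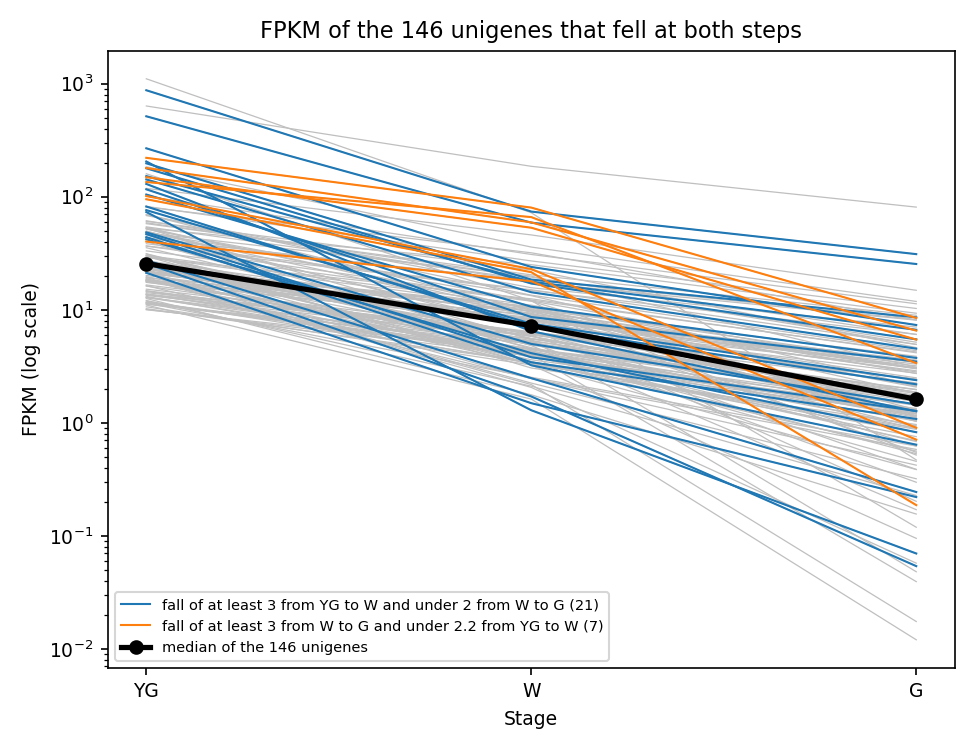
FPKM (log scale) of the 146 unigenes by stage (YG, W, G), with 1 line per unigene and 1 value per stage. The thick black line joins the medians of 25.6, 7.23 and 1.62, the blue lines are the 21 unigenes with the steep first step described below, and the orange lines are the 7 with the steep second step.

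A fall of at least 1 on this scale was found for 582 of the 6913 eligible unigenes at the first step (8.42%) and for 630 at the second (9.11%), and a fall of at least 2 over both steps for 463 (6.7%), all 146 among them. Both falls were met by 147 (2.13%), which are the 146 described here and 1 unigene of the pathway tables. The opposite pattern, a rise of at least 1 at both steps, was met by 298 (4.31%). These percentages are counts past a fold, not counts of significant changes.

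**Figure D2:**
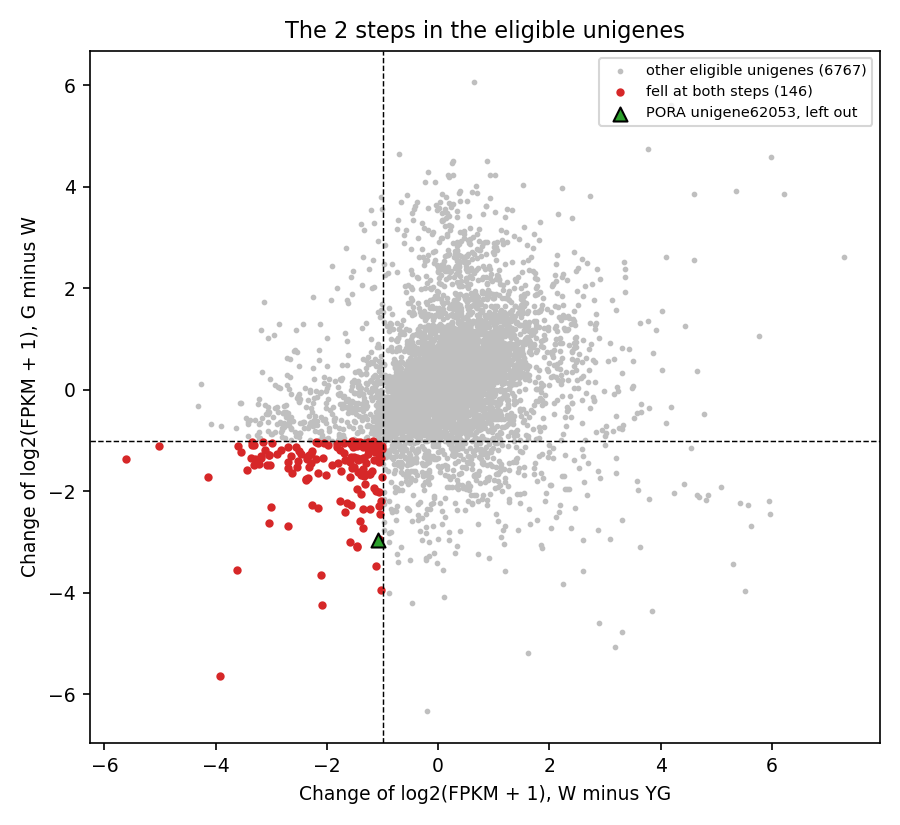
Change of log2(FPKM + 1) in the first step, YG to W (horizontal axis), and in the second, W to G (vertical axis) for the 6913 eligible unigenes. The 146 unigenes (red) fill the lower left corner bounded by the dashed lines at -1, and the green triangle is the pathway unigene that met the same values.

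The summed FPKM of the 146 unigenes was 9712 at YG, 1895 at W and 503 at G. This was 2.54%, 0.542% and 0.136% of the FPKM of all unigenes in these stages. A small number of unigenes carried much of the sum, and the 4 with the highest YG values held 32.2% of it in YG. Without these 4 the sums were 6582, 1504 and 365. Any such sum has to decline, since each unigene was chosen to fall at both steps. In YG, 41 of the 146 had an FPKM of at least 50 and 22 reached 100. An FPKM of 10 was reached by 48 of them in W and by 7 in G. Values in G lay between 1 and 10 for 95 unigenes, below 1 for 44 and below 0.1 for 8.

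Ranked among all 179951 unigenes of a stage, 12 of the 146 were among the 100 highest in YG, against 1 in W and 0 in G. The median rank was 1346 at YG, 6648 at W and 33265 at G. The ranks are drawn from the same FPKM values as the rule, which sets their direction.

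The unigenes with the highest expression in YG did not share one profile. The highest value belonged to unigene65933, with an FPKM of 1105 at YG, 72.2 at W and 0.469 at G. It kept 6.54% of its YG level in W and 0.0425% in G, and its rank among all unigenes was 17 at YG, 330 at W and 87341 at G. Its fall of 9.56 on the log2(FPKM + 1) scale from YG to G was the largest of the 146, and the step from W to G, a fall of 5.64, was the larger of its 2 steps.

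The FPKM of unigene107089 was 875 at YG, 73.9 at W and 31.1 at G. Its level in W was thus nearly that of unigene65933, while its G level stayed well above 10. In unigene6807 the FPKM was 515 at YG, 59.0 at W and 25.4 at G. Both of these unigenes lost most of their YG level by W, keeping 8.45% and 11.5% of it, and then kept 42.0% and 43.1% of the W level in G. The FPKM of unigene47469 was 635 at YG, 186 at W and 81.0 at G, the highest values of the 146 in W and in G. It kept 12.7% of its YG level in G, so that it was the unigene of this kind still most highly expressed in the re-greened leaf.

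The next values in YG were those of unigene77721, with an FPKM of 268 at YG, 23.9 at W and 7.33 at G, and unigene68316, with 221, 80.2 and 8.47. The G values of these 2 unigenes were close, although most of the log2 change of the first lay between YG and W and most of that of the second between W and G.

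Besides unigene65933, the largest falls from YG to G on the log2(FPKM + 1) scale were those of 4 unigenes with very low values in G. The FPKM of unigene105877 was 160 at YG, 12.1 at W and 0.119 at G, a change of -7.17 on the log2(FPKM + 1) scale. In unigene33172 it was 205, 3.23 and 0.641, a change of -6.97, and in unigene45341 it was 95.0, 21.5 and 0.187, a change of -6.34. The values of unigene71140 were 73.2, 1.29 and 0.0698, a change of -6.12. The added 1 compresses such falls. Without it the log2 ratio of G to YG was -10.4 for unigene105877, -8.32 for unigene33172, -8.99 for unigene45341 and -10.0 for unigene71140, and the order of these unigenes changed. By plain ratios unigene59114 (-10.1), unigene57584 (-10.1) and unigene89390 (-9.84) also fell by more than unigene45341 and unigene33172.

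**Figure D3:**
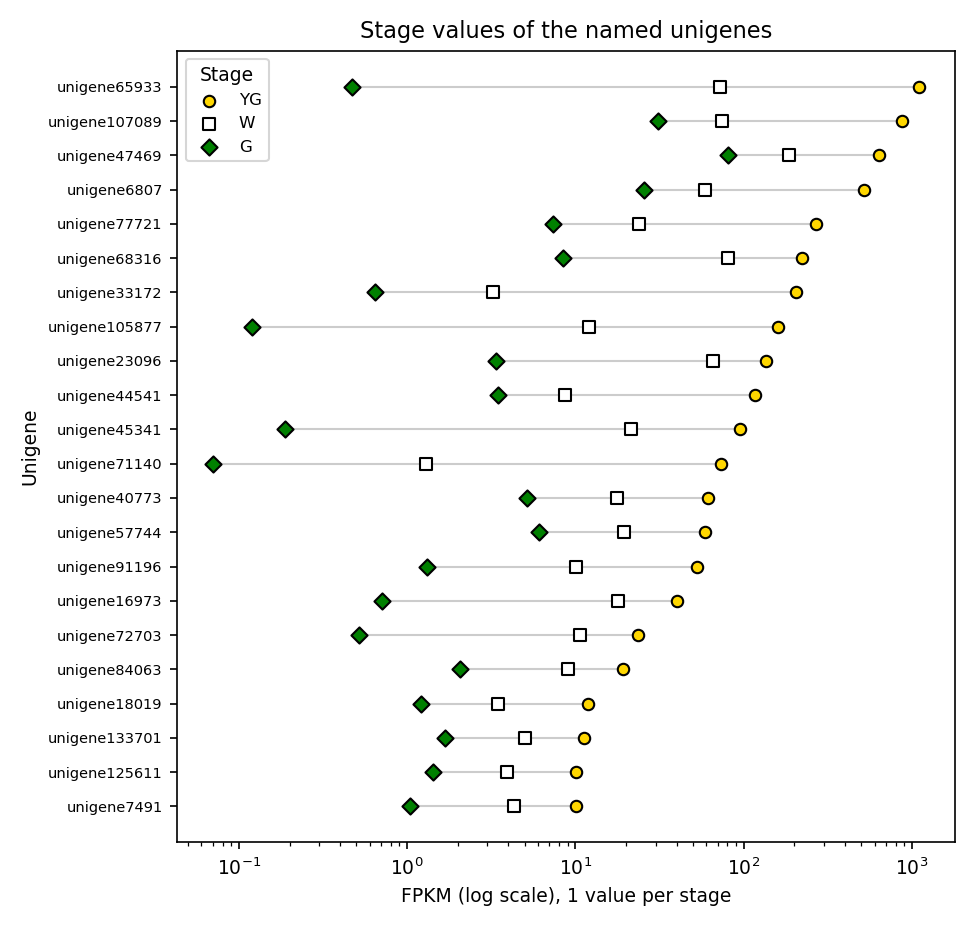
FPKM (log scale) at YG (circle), W (square) and G (diamond) for the 22 unigenes named for their level, size of fall, balance of steps or place at a limit, ordered by their YG value, with 1 value per stage. The first step is the longer one in unigene33172 and unigene71140, the second in unigene23096, unigene16973 and unigene72703.

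The balance of the 2 steps varied widely among the 146 unigenes. The step from YG to W took between 20.6% and 82.0% of the total log2 change, with a median of 54.5%. It was the larger step in 94 unigenes, and the step from W to G was larger in 52. This majority depended on the pseudocount. With plain log2 ratios the first step was the larger one in 66 unigenes and the second in 80, because the values in G are low and an added 1 shortens the second step most. Among the 22 unigenes that reached 100 in YG, the first step was larger in 15 with the pseudocount and in 14 without it. Some of these 22 also had low values in G, and the second step of unigene105877 went from -3.55 to -6.66 without the pseudocount. The steps were within 0.5 of each other in 62 unigenes.

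On the log2(FPKM + 1) scale, 21 unigenes fell by at least 3 from YG to W and by less than 2 from W to G. These limits were chosen after the values were seen, and the second limit rests in part on the added 1. With plain log2 ratios the second fall was at least 2 in 7 of the 21 and at least 3 in 3, unigene71140, unigene41122 and unigene17433, which kept 5.40%, 3.16% and 9.84% of the W level in G. The median FPKM of the 21 was 105 at YG, 7.09 at W and 2.19 at G. Besides unigene107089, unigene6807 and unigene77721, 7 others in this group had YG values between 105 and 198, and 5 of these had similar profiles. The FPKM of unigene28946 was 198 at YG, 18.5 at W and 8.58 at G, and that of unigene46308 was 179, 17.1 and 5.48. In unigene30020 it was 152, 17.7 and 6.65, in unigene66128 it was 142, 14.3 and 4.53, and in unigene91830 it was 105, 10.6 and 3.75. These 5 kept between 9.37% and 11.6% of the YG level in W and between 31.7% and 46.4% of the W level in G. On the log2(FPKM + 1) scale the largest share of the fall in the first step was that of unigene71140 and unigene33172 (above) and of unigene44541, with an FPKM of 116 at YG, 8.63 at W and 3.49 at G. With plain log2 ratios the first step held 58.0% of the fall of unigene71140, 72.0% of that of unigene33172 and 74.2% of that of unigene44541, and the largest share was that of unigene28946, with 75.5%.

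A steep second step was seen in 7 unigenes, which fell by at least 3 from W to G and by less than 2.2 from YG to W, limits that were also chosen after the values were seen. Their median FPKM was 135 at YG, 53.2 at W and 3.37 at G. Among them, 3 unigenes had nearly parallel profiles. The FPKM was 221, 80.2 and 8.47 in unigene68316, 179, 59.4 and 6.54 in unigene37550, and 149, 53.2 and 5.45 in unigene130445, in the order YG, W and G. They kept 36.3%, 33.1% and 35.8% of the YG level in W, and 10.6%, 11.0% and 10.2% of the W level in G. Whether they are parts of 1 transcript or of different genes cannot be told from the identifiers, and how reads shared by similar unigenes were divided is not given in the sources used here.

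The largest share of the fall between W and G was that of unigene23096, with an FPKM of 135 at YG, 66.1 at W and 3.37 at G. It kept 48.9% of its YG level in W and 5.11% of its W level in G. In unigene16973 the FPKM was 40.2, 17.9 and 0.710, and in unigene72703 it was 23.5, 10.7 and 0.518. Both kept 44.5% and 45.5% of the YG level at W. In all 3 unigenes most of the log2 change lay between the albescent and the re-greening leaf.

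The fall was at least 2 on the log2(FPKM + 1) scale at each step in 9 unigenes, and at least 3 at each step in 2, unigene65933 and unigene105877. In unigene105877 the steps were -3.62 and -3.55, but the plain log2 ratios were -3.73 and -6.66, so the evenness of its steps depended on the added 1. Among those that reached 50 in YG, nearly equal steps on the log2(FPKM + 1) scale were found in unigene91196, with an FPKM of 52.5 at YG, 10.1 at W and 1.31 at G, in unigene57744, with 58.8, 19.4 and 6.05, and in unigene40773, with 61.3, 17.7 and 5.17. At the other end, 34 unigenes fell by less than 1.5 at each step. Their median FPKM was 17.03 at YG, 6.83 at W and 2.47 at G, and the highest YG value among them was 57.8.

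Many of the 146 lay close to the limits that chose them, and 248 unigenes met the same limits when plain log2 ratios were used. Within 0.1 of the limit on the log2 scale were 17 unigenes at the first step and 25 at the second, or 40 at either. Just inside the first limit were unigene84063, with an FPKM of 19.2 at YG, 9.04 at W and 2.07 at G, and unigene133701, with 11.2, 5.02 and 1.67. Just outside it were unigene12581, with 12.4, 5.69 and 1.43, and unigene77720, with 23.6, 11.5 and 1.82. At the second limit, unigene18019 (11.9, 3.44 and 1.20) and unigene125611 (10.1, 3.91 and 1.43) were inside, and unigene93102 (18.3, 4.13 and 1.57) and unigene65923 (14.3, 3.39 and 1.20) were outside. The FPKM minimum was just met by unigene7491, with 10.005 at YG, 4.29 at W and 1.03 at G, and by unigene125611, and just missed by unigene129282 (9.86, 4.31 and 0.860) and unigene26074 (9.61, 4.26 and 1.39). Unigenes on either side of a limit therefore had nearly the same values.

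The share of eligible unigenes that belonged to the 146 was larger at higher YG levels. It was 1.77% of the 2604 eligible unigenes with a YG value from 10 to under 20, 4.26% of 1386 from 20 to under 50, 5.31% of 358 from 50 to under 100, and 11.3% of 194 with at least 100. On the log2(FPKM + 1) scale a unigene close to 10 has little room for 2 falls of at least 1, so part of this order follows from the scale. The unigenes that fell at 1 step only also took larger shares at the highest level. Those that fell at the first step only made up 7.95% of the lowest class and 21.1% of the highest, and those that fell at the second only 6.53% and 12.4%. No test was run on these shares.

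The 146 were set beside the unigenes that fell at 1 step only, as a description. At the first step 396 unigenes fell by at least 1 while changing by less than 1 in size at the second, and 351 fell at the second step while changing by less than 1 at the first. The first step had the same median size in the 146 and in the 396, -1.61 in both. The second step had a median of -1.37 in the 146 and -1.47 in the 351. The level left in G was lower in the 146, which kept a median of 5.82% of the YG value, against 21.9% in the 396 and 27.1% in the 351, a difference that the requirement of 2 falls sets. An FPKM of at least 50 in YG was found for 28.1% of the 146, against 18.9% of the 396 and 13.4% of the 351. The rule shapes these shares too, since the 146 had to reach 10 in YG and the 351 could do so in W. Of the 117 eligible unigenes that reached 10 in YG and were below 1 in G, 44 were among the 146, 61 among the 396 and 11 among the 351. This split also follows in part from the falls required of each set.

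**Figure D4:**
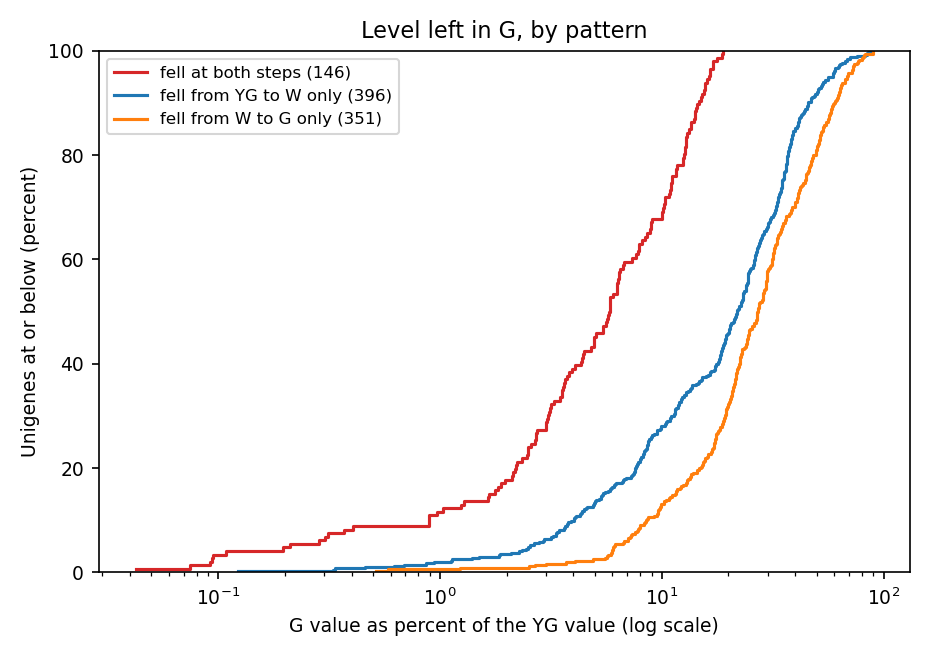
Cumulative share of unigenes (vertical axis, percent) by the G value as a percentage of the YG value (horizontal axis, log scale), for the 146 that fell at both steps, the 396 that fell from YG to W only and the 351 that fell from W to G only. The medians are 5.82%, 21.9% and 27.1%, and all 146 values are at or below 18.8%.

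None of the 146 is in the pathway lists of the study. The rule sets this in part, since it left out the unigenes named in the pathway tables, of which 1 met both falls. Of the 49 carotenoid, 70 chlorophyll and 36 theanine unigenes, counted as different identifiers in the supplementary lists as read here and not as totals of the study, 13, 25 and 16 were eligible. A fall of at least 1 at the first step was found for 0, 1 and 0 of these, against 8.42% of all eligible unigenes, and at the second step for 0, 4 and 1, against 9.11%. Their median changes over both steps were 0.95, 0.14 and 0.72, beside 0.14 over all eligible unigenes. Lists of this size can hold few such unigenes at the overall shares, and no test was run.

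The pathway unigene that met both falls and was left out by the rule was the PORA unigene62053. Protochlorophyllide oxidoreductase (POR) reduces protochlorophyllide to chlorophyllide in the light, and in Arabidopsis thaliana the PORA form is known from dark-grown seedlings, where it declines after illumination. The FPKM of unigene62053 was 29.0 at YG, 13.2 at W and 0.822 at G, with steps of -1.08 and -2.96. This profile is of the kind with the steeper second step, like unigene72703. The PORA unigene7972, with 36.2, 19.2 and 1.87, missed the first limit with -0.88 and passed the second with -2.81. Of the other PORA unigenes that were lower at both steps, unigene1225 had an FPKM of 16.5 at YG, 10.7 at W and 2.38 at G and unigene57504 had 13.6, 11.3 and 2.47, so that their fall also lay mainly between W and G.

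The study designed qRT-PCR primers for unigene62053 and unigene7972. These 2 PORA unigenes had the largest falls from YG to G among the eligible unigenes of the pathway lists. Whether the primers tell the 2 transcripts apart was not tested.
unigene62053 sense: gaccttgctgtctttgtatgccttg
unigene62053 antisense: gcctacctaggggacatgaggg
unigene7972 sense: tggaagactgaaagatacaaggaaa
unigene7972 antisense: ccagaataatcacccacatagatga
Neither unigene62053 nor unigene7972 belongs to the 146 unigenes.

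In the theanine list, the closest unigene was the glutamine synthetase (GS) unigene6286, with an FPKM of 40.6 at YG, 19.97 at W and 7.55 at G. GS joins ammonium to glutamate to give glutamine. The paper's text also counts unigene6286 among its candidate theanine synthetase (TS) unigenes, and gives it as down-regulated in G. The steps of -0.99 and -1.29 place unigene6286 just outside the first limit. The AIDA unigene81677, listed for alanine decarboxylase, had 28.3, 14.5 and 9.36, with steps of -0.92 and -0.58. The paper took its AIDA unigenes from arginine decarboxylases with related domains, since no AIDA gene had been characterized. In the carotenoid list, the geranylgeranyl diphosphate synthase (GGPS) unigene41970 was the only eligible unigene lower at both steps, and its steps of -0.57 and -0.17 were small beside those of the 146.

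The unigene number was not used to choose the 146, and their spread over the numbering was close to that of the eligible unigenes. Numbers 1 to 30000 held 38.4% of the 146 and 42.3% of the eligible unigenes, and numbers 130001 to 179951 held 9.59% and 7.68%. The unigenes next to a member in number were eligible in 26 cases, and 14 of these (53.8%) were lower at both steps by any amount, against 28.1% of all eligible unigenes. An example is unigene77720 (23.6, 11.5 and 1.82), which stands next to unigene77721 (268, 23.9 and 7.33). Of the 26, 4 fell by at least 1 at 1 of the steps. Among the 6913 eligible unigenes such a fall was found for 582 (8.42%) at the first step and 630 (9.11%) at the second, with 147 in both counts. The 4 count a fall at either step, so neither share alone is a like comparison for them. No difference is read from so few. The falls counted among the 14 could be small. For example, unigene41123, next to unigene41122 (25.7, 1.71 and 0.0540), was nearly level from YG to W, with 91.0 at YG, 87.0 at W and 60.5 at G. How the numbers were assigned is not given in the sources used here, and the difference between 53.8% and 28.1% was not tested.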

How the data were processed

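RNA-seq libraries of ‘Anji Baicha’ leaves were grouped into YG, W and G stages by their labels, with 3 libraries per stage and 9 in all. By the paper's methods, the authors filtered the reads, built the unigenes in Trinity (release 20130225) without a genome and computed FPKM with Cufflinks, version 1.0.3 in the methods and 2.1.1 in the submitters' processing notes. The deposited FPKM tables hold a single value for each unigene in a stage, the libraries having been combined. How they were combined, and the aligner, are not given in the sources used here. The paper gives the number of reads of each library, which was not used here, and the fragments behind each FPKM are unknown. No interval or limit of detection was derived.

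The 3 stages were joined by unigene, and log2(FPKM + 1) of the earlier stage was subtracted from that of the later, a scale that understates the change of low unigenes. The choice of the 146 unigenes and the lists set beside them were made with earlier results of these data known. The paper tested 3 libraries per stage and listed the pathway unigenes named above as differentially expressed between stages. It also measured selected pathway unigenes by qRT-PCR. With 1 value per stage no test, p-value, SD or replicate check was possible.

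The named unigenes are those with the highest YG or G values, the largest falls, the most even steps among those with an FPKM of at least 50 in YG, the most uneven steps, those at the limits of the rule, and the pathway unigenes that met it. Any further unigene was picked with its values known. Alternatives were a pseudocount of 0.1 or none, FPKM minimums of 5, 20 and none, falls of 0.5 and 2, values of 0 in W or G, upper-quartile scaling (75th percentile), scaling to equal sums and quantile normalization. The alternatives for the balance of the steps were chosen after seeing the data. The counting step was run on simulated data with planted falls well past the limits, which checks the code and not the choice of unigenes near the limits. Python 3.11.15 with pandas 2.3.3, numpy 2.4.6 and matplotlib 3.10.9 was used.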

Additional observations from a re-analysis of the deposited data

How the results depend on the processing

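The number of unigenes that fell at both steps, 146, depended most on the pseudocount and on the size of fall required. It was 239 with a pseudocount of 0.1 and 248 with none, 9 with a fall of at least 2 at each step and 561 with a fall of at least 0.5. The count was 178 with no FPKM minimum, 175 with a minimum of 5, 100 with a minimum of 20, and 173 with values of 0 allowed in W or G. Scaling moved it less, to 149 (upper-quartile), 141 (equal sums) and 161 (quantile normalization), and 146, 126 and 142 of the 146 were found again. Equal sums shifted the median of all eligible unigenes by 0.12 from YG to W, and quantile normalization by -0.16 from W to G. The median change of the 146 from YG to G was -4.01 with a pseudocount of 0.1 and -4.10 with none, and stayed between -3.36 and -3.43 under the 3 scalings. Of the 146, the first step was larger in 69 with a pseudocount of 0.1, 66 with none, and 94, 76 and 87 under upper-quartile, equal-sum and quantile scaling. Of 110 changes from YG to G recomputed for the 22 named unigenes under these 5 settings, 21 moved by over 1.5 times as a fold, all of them with a pseudocount of 0.1 or none. Leaving out replicates was not run, since 1 value per stage is held. No paired analysis was possible because the columns carry stages and not the numbered libraries.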

Other observations

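A further 27 unigenes met both falls but were listed at an FPKM of 0 in G, a value that can be a failed estimate, so no fold is given for them. None of the 27 was listed at 0 in W. The rule sets this, as an FPKM of 0 in W leaves no room for a second fall. The highest YG values among them were those of unigene43359, with an FPKM of 84.6 in YG and 1.34 in W, unigene129811, with 76.4 and 8.98, and unigene19372, with 67.0 and 8.42. These values are of the size found in the 146 unigenes, of which 8 had an FPKM below 0.1 in G.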
